A study of Homo sapiens with 4 samples.

Results

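The genes described here encode the mTOR kinase complexes, the switch that controls them and a kinase they phosphorylate: MTOR, MLST8, DEPTOR, RPTOR, AKT1S1, RICTOR, TSC1, TSC2, RHEB and ULK1. They were chosen by symbol and not by a measured value, although earlier results of these data were known by then. All 10 were found among the 17064 lines of the deposited expression table. The cells sequenced were KYSE-150, an established human line of esophageal squamous cell carcinoma. The 4 libraries, 1 per group, are polyribosome-bound and input RNA of cells with a stable short hairpin RNA against NSUN6, an RNA methyltransferase that forms 5-methylcytosine, and polyribosome-bound and input RNA of control cells of normal genotype. All cells received cycloheximide, which arrests elongating ribosomes on their messages, before lysis, and polyribosomes were collected through a sucrose cushion. The labels do not say whether the knockdown line is a clone or a pool.

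mTOR is a serine/threonine kinase that couples nutrient and growth factor signals to cell growth and works in either of a pair of complexes. In mTORC1 it is joined by the scaffold raptor (RPTOR) and the inhibitor PRAS40 (AKT1S1), and in mTORC2 by rictor (RICTOR), while mLST8 (MLST8) and the inhibitor DEPTOR belong to both. The small GTPase RHEB, in its GTP-bound form, activates mTORC1 at the lysosome, and the TSC1-TSC2 complex switches RHEB off. Active mTORC1 favours cap-dependent translation and, by phosphorylating ULK1, holds back the start of autophagy.

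The deposited table ends with another set of column names that disagrees with the header and bears on every comparison between the cells. It names the control columns as K150 with a hairpin against GFP, and the other pair as K30 with a hairpin against Mettl1, and puts input before polyribosome RNA where the header has them the other way round. The header was followed because its names are those of the sample labels, and the pair in doubt is called knockdown-labelled. NSUN6 was at 0.38 FPKM (a fragment count scaled to transcript length and library size) in knockdown-labelled polyribosome RNA, against 10.13 FPKM in control polyribosome RNA. In input it was at 3.83 FPKM in knockdown-labelled cells, against 8.85 FPKM in control cells. METTL1, the tRNA methyltransferase of those names, was also lower, at 8.32 FPKM in knockdown-labelled and 14.32 FPKM in control polyribosome RNA. Its input level was 5.98 FPKM in knockdown-labelled and 13.02 FPKM in control cells. Among genes averaging 5 FPKM or more, 32.9% were at least 2-fold lower in knockdown-labelled than in control polyribosome RNA, and 14.4% in input. In their lowest quintile of GC content, which holds NSUN6 at 40.7%, 75.1% were at least 2-fold lower in polyribosome RNA. All 10 epithelial markers were above 0 in all 4 libraries. Their summed level in input was 4398 FPKM in knockdown-labelled and 4764 FPKM in control cells. The basal keratin KRT5 was at 0.45 FPKM in knockdown-labelled input, against 906 FPKM in control input. KRT14, TP63, SFN and DSP were also lower in knockdown-labelled input. KRT6A, CDH1, EPCAM, KRT8 and KRT18 were higher there, with EPCAM at 186 FPKM against 66.4 FPKM in control input. Markers of fibroblasts and endothelium each summed to under 3 FPKM in every library, and those of immune cells summed to 8.55 to 10.2 FPKM in the knockdown-labelled libraries, against 71.5 to 74.1 FPKM in the control libraries. The macrophage gene CD68, which epithelial lines can also express, made up 5.90 to 6.38 FPKM of that sum in the knockdown-labelled and 69.3 to 71.2 FPKM in the control libraries, and the defining leukocyte gene PTPRC lay at 0.24 to 0.63 FPKM in the 4 libraries. A difference between the cells described below therefore cannot be told apart from a difference between lines. With 1 library per group no difference has a replicate check and no test was possible, the read depth is unknown, and in bulk RNA fewer expressing cells and less RNA per cell cannot be told apart.

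Base composition differs widely among these messages and ran in step with several of the values below, so stretches of their coding parts are shown first. Each is 51 bases from the coding exon that holds the middle codon, from GENCODE 29 (GRCh38), written 5′ to 3′ in the reading frame with the last base of each codon in capitals. The order is from the lowest to the highest GC content of the whole transcript.
RICTOR: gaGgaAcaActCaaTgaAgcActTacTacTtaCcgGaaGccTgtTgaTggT
RHEB: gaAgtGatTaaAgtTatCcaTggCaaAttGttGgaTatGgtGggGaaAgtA
MTOR: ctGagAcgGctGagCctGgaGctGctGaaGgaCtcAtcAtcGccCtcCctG
MLST8: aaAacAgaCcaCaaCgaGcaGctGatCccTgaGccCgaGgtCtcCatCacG
ULK1: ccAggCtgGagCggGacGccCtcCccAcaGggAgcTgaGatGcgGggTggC
They lie at chr5:38955624-38955674 (minus strand) for RICTOR, chr7:151471551-151471601 (minus) for RHEB, chr1:11204605-11204655 (minus) for MTOR, chr16:2207244-2207294 (plus) for MLST8 and chr12:131915355-131915405 (plus) for ULK1. In the RICTOR stretch 5 of 17 capitals are G or C and in the RHEB stretch 8 of 17, whereas the MLST8 and MTOR stretches have 14 each and the ULK1 stretch 12. Over the whole coding part, G or C is the last base of 33.9% of codons in RICTOR, 41.3% in RHEB, 63.8% in MTOR, 84.7% in MLST8 and 83.5% in ULK1. The GC content of the whole transcript was 38.2% for RICTOR, 45.7% for DEPTOR, 48.0% for RHEB, 48.3% for TSC1, 52.2% for MTOR, 59.8% for RPTOR, 61.4% for TSC2, 62.3% for AKT1S1, 63.7% for MLST8 and 64.2% for ULK1.

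The messages of the complexes were present at very unequal levels per length. The highest was that of AKT1S1, at 161 to 307 FPKM over the 4 libraries, and the lowest that of RICTOR, at 0.14 to 1.80 FPKM. MLST8 and RHEB followed AKT1S1, whereas RPTOR, TSC2 and ULK1 lay between 7.75 and 23.73 FPKM, and MTOR, DEPTOR and TSC1 were under 10 FPKM in every library. Counts below are over the 7379 genes whose 4 libraries averaged 5 FPKM or more, and 7 of the 10 members passed this filter. RICTOR, TSC1 and DEPTOR did not, with means of 1.03, 3.02 and 3.20 FPKM, and their values are given but not counted. The smallest mean inside the threshold was that of MTOR, at 6.02 FPKM.

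**Figure D1:**
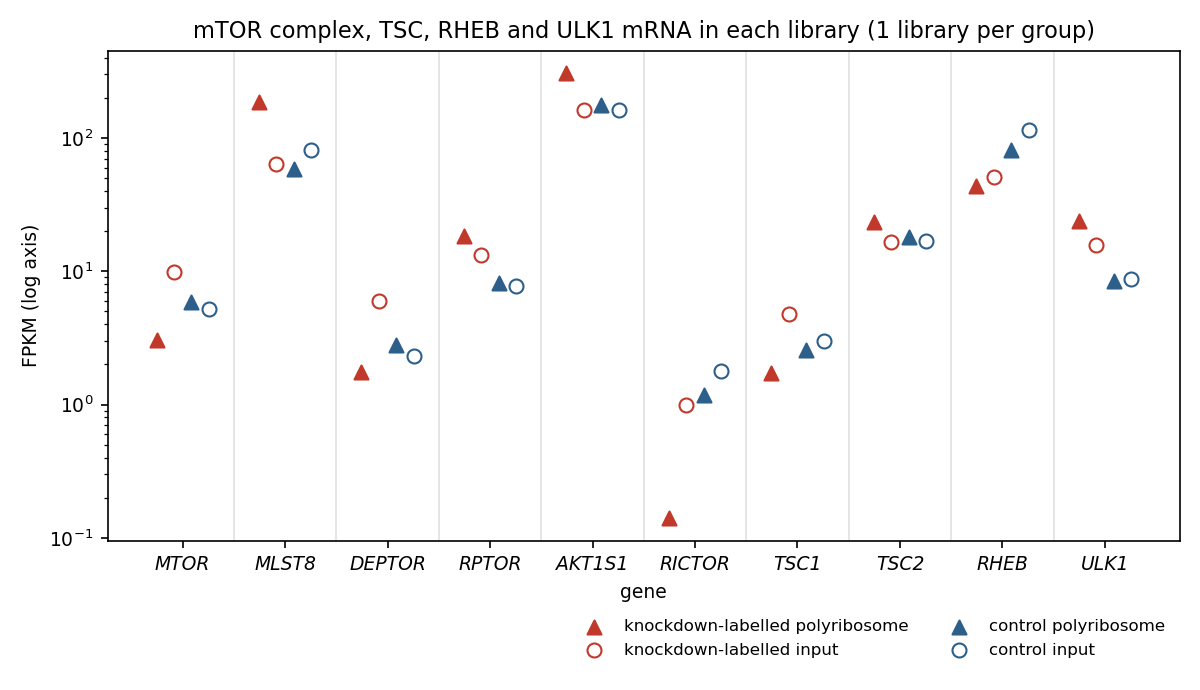
FPKM (log axis) of each gene in knockdown-labelled polyribosome RNA (filled red triangles), knockdown-labelled input (open red circles), control polyribosome RNA (filled blue triangles) and control input (open blue circles), 1 library each. AKT1S1 is highest in all 4 libraries, RICTOR is lowest in all 4, and the 2 control libraries lie closer together than the 2 knockdown-labelled ones for every gene but RHEB.

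MTOR, the catalytic subunit of both complexes, was low on knockdown-labelled polyribosomes relative to the other 3 libraries. It was at 3.06 FPKM in knockdown-labelled polyribosome RNA and 9.93 FPKM in knockdown-labelled input, against 5.89 FPKM in control polyribosome RNA and 5.19 FPKM in control input. Knockdown-labelled input was thus the highest library for MTOR and knockdown-labelled polyribosome RNA the lowest, with both control libraries between them. On the log2(FPKM + 1) scale, on which all log2 differences here are given and which understates the change of low genes, the difference between knockdown-labelled and control cells was -0.76 in polyribosome RNA and 0.82 in input.

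MLST8, a WD-repeat protein that binds the mTOR kinase domain, was instead high on knockdown-labelled polyribosomes. It was at 184.83 FPKM in knockdown-labelled polyribosome RNA and 63.57 FPKM in knockdown-labelled input, against 58.96 FPKM in control polyribosome RNA and 80.62 FPKM in control input. Only the knockdown-labelled polyribosome library stood high, at 3.13 times control polyribosome RNA, while knockdown-labelled input was at 78.9% of control input. The log2 differences were 1.63 in polyribosome RNA and -0.34 in input. DEPTOR, an inhibitor that binds mTOR in both complexes, was under the filter and was arranged like MTOR. It was at 1.75 FPKM in knockdown-labelled polyribosome RNA and 5.94 FPKM in knockdown-labelled input, against 2.78 FPKM in control polyribosome RNA and 2.32 FPKM in control input, with log2 differences of -0.46 in polyribosome RNA and 1.06 in input.

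The 2 subunits specific to mTORC1 were higher on knockdown-labelled than on control polyribosomes. RPTOR, the scaffold that recruits mTORC1 substrates, was at 18.49 FPKM in knockdown-labelled polyribosome RNA and 13.28 FPKM in knockdown-labelled input, against 8.23 FPKM in control polyribosome RNA and 7.75 FPKM in control input. Both knockdown-labelled libraries were above both control libraries, with log2 differences of 1.08 in polyribosome RNA and 0.71 in input. AKT1S1, the AKT substrate that inhibits mTORC1 when it is not phosphorylated, was at 306.80 FPKM in knockdown-labelled polyribosome RNA and 161.19 FPKM in knockdown-labelled input, against 175.22 FPKM in control polyribosome RNA and 160.67 FPKM in control input. Its 2 inputs were level, so the groups overlapped, and the log2 differences were 0.80 in polyribosome RNA and 0.00 in input.

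RICTOR, the subunit that defines mTORC2, went the other way from RPTOR. It was at 0.14 FPKM in knockdown-labelled polyribosome RNA and 0.99 FPKM in knockdown-labelled input, against 1.18 FPKM in control polyribosome RNA and 1.80 FPKM in control input. Both knockdown-labelled libraries were below both control libraries, and the polyribosome level was 11.9% of the control one. The log2 difference in polyribosome RNA was -0.94 with 1 FPKM added and -2.42 with 0.1 FPKM added, so its size at these low levels rests on the constant.

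The TSC-RHEB switch did not shift as a block. RHEB, the GTPase that turns mTORC1 on, was at 43.59 FPKM in knockdown-labelled polyribosome RNA and 51.33 FPKM in knockdown-labelled input, against 80.68 FPKM in control polyribosome RNA and 115.56 FPKM in control input. Both knockdown-labelled libraries were below both control libraries, and the log2 differences were -0.87 in polyribosome RNA and -1.16 in input. TSC2, the GTPase-activating subunit that inactivates RHEB, was at 23.21 FPKM in knockdown-labelled polyribosome RNA and 16.48 FPKM in knockdown-labelled input, against 18.05 FPKM in control polyribosome RNA and 16.78 FPKM in control input. These values overlapped, with log2 differences of 0.35 in polyribosome RNA and -0.02 in input. TSC1, which stabilizes TSC2, was under the filter, at 1.74 FPKM in knockdown-labelled polyribosome RNA and 4.75 FPKM in knockdown-labelled input, against 2.57 FPKM in control polyribosome RNA and 3.02 FPKM in control input. Like MTOR and DEPTOR, TSC1 had its highest value in knockdown-labelled input and its lowest in knockdown-labelled polyribosome RNA, with log2 differences of 0.52 in input and -0.38 in polyribosome RNA. The values of RHEB are uncertain because GENCODE 29 lists 3 pseudogenes of it. Coding genes on the other strand overlap TSC2, TSC1, MLST8 and RICTOR, and whether the counting used strand is not stated. AKT1S1 was not checked for pseudogenes or overlaps.

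ULK1, the kinase that starts autophagy and that mTORC1 inhibits, was higher in both knockdown-labelled libraries. It was at 23.73 FPKM in knockdown-labelled polyribosome RNA and 15.72 FPKM in knockdown-labelled input, against 8.48 FPKM in control polyribosome RNA and 8.82 FPKM in control input. The groups did not overlap, and the log2 differences were 1.38 in polyribosome RNA and 0.77 in input.

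Of the 7 members past the filter, as of all genes, more were at least 2-fold apart in polyribosome RNA than in input. This holds in the header's column order. MLST8, RPTOR and ULK1 were at least 2-fold higher in knockdown-labelled polyribosome RNA, where 16.7% of all genes were, and 0 were at least 2-fold lower, where 32.9% of all genes were. In either direction that made 3 of 7 members, beside 49.5% of all genes. With 5 FPKM added, the constant of the deposited ratios, RPTOR came to 0.83 and the count was 2. The median of all genes was -0.28 in this comparison, and when differences were centred on it AKT1S1 came to 1.09 and the share of higher genes among all 2-fold differences was 45.8% in place of 33.6%. In input RNA, 0 of the 7 were at least 2-fold higher, against 13.2% of all genes, and RHEB alone was 2-fold or more lower, against 14.4%, which made 1 of 7 beside 27.6% in either direction. RPTOR and ULK1 were above in both knockdown-labelled libraries and RHEB was below in both, a comparison chosen after the values were seen that does not depend on the order of the 2 knockdown-labelled columns. Of all genes, 26.1% were above and 31.3% below in this sense, so 2 of 7 members above was near the background and 1 of 7 below was under it.

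With the order of the names at the table's end, in which the 2 knockdown-labelled fractions trade places, the 3 genes at least 2-fold higher belonged to input RNA. MLST8 was then at 1.19, RPTOR at 1.16 and ULK1 at 1.33 in input, and at 0.11, 0.63 and 0.82 in polyribosome RNA. RHEB was then at -1.39 in input.

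Ratios between 2 genes of the same library do not depend on scaling between libraries. RPTOR exceeded RICTOR 132-fold in knockdown-labelled polyribosome RNA and 13.4-fold in knockdown-labelled input, against 6.97-fold in control polyribosome RNA and 4.31-fold in control input. The 132-fold value rests on 0.14 FPKM of RICTOR and the 13.4-fold value on 0.99 FPKM. The excess of the mTORC1 scaffold message over the mTORC2 one was therefore larger in both knockdown-labelled libraries than in both control libraries. MLST8 exceeded MTOR 60.4-fold in knockdown-labelled polyribosome RNA and 6.40-fold in knockdown-labelled input, against 10.0-fold in control polyribosome RNA and 15.5-fold in control input. TSC2 exceeded TSC1 13.3-fold in knockdown-labelled polyribosome RNA and 3.47-fold in knockdown-labelled input, against 7.02-fold in control polyribosome RNA and 5.56-fold in control input. For both of these pairs the control values lay between the knockdown-labelled ones. RHEB over TSC2, activator over inhibitor of the switch, was 1.88 in knockdown-labelled polyribosome RNA and 3.11 in knockdown-labelled input, against 4.47 in control polyribosome RNA and 6.89 in control input, so that both knockdown-labelled libraries were lower. RPTOR over MTOR stayed between 1.34 and 1.49 in 3 libraries and was 6.04 in knockdown-labelled polyribosome RNA. ULK1 over MTOR behaved likewise, at 7.75 in knockdown-labelled polyribosome RNA and 1.44 to 1.70 in the other 3 libraries, and MTOR over DEPTOR ranged from 1.67 to 2.24 over all 4. All these pairs but RHEB over TSC2 set a gene of higher transcript GC content over one of lower. The part of GC content in these ratios was not tested.

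**Figure D2:**
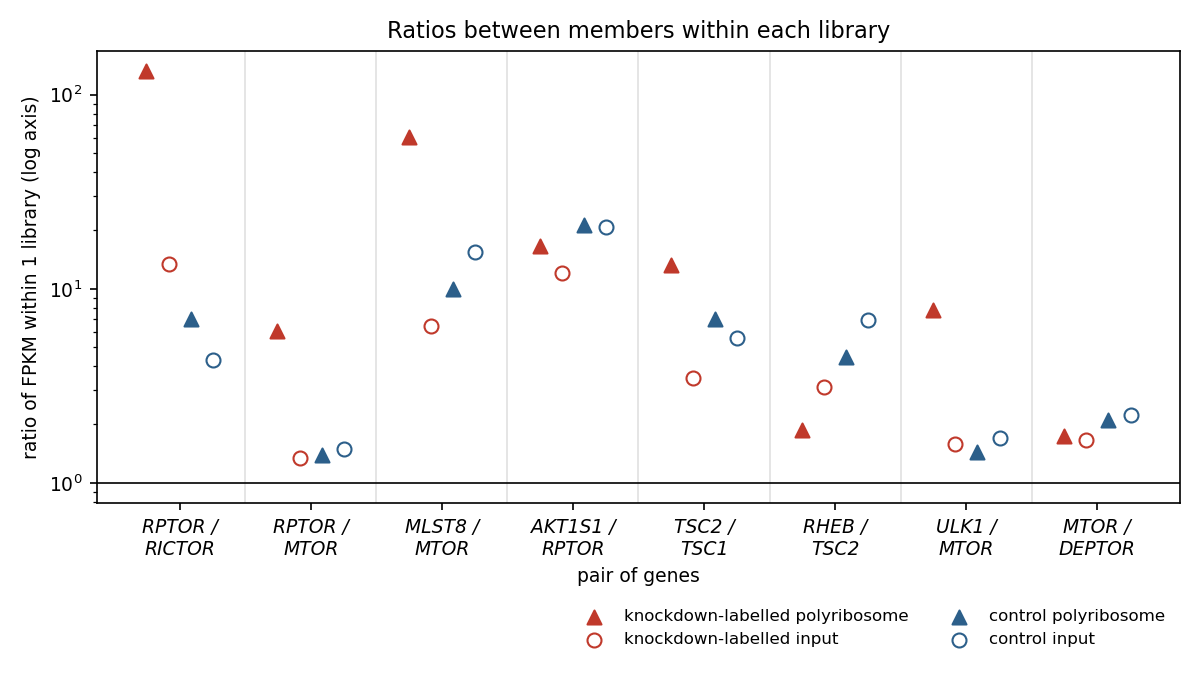
Ratio of the FPKM of 2 genes within a library (log axis) for 8 pairs, with symbols for knockdown-labelled polyribosome, knockdown-labelled input, control polyribosome and control input libraries as in the plot of levels. RPTOR over RICTOR reaches 132 in knockdown-labelled polyribosome RNA against 4.31 in control input, while MTOR over DEPTOR stays between 1.67 and 2.24.

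The series was designed to compare translation efficiency, here log2 of the polyribosome level over the input level, both as FPKM + 1. In control cells the members differed by less than 2-fold between the fractions, as nearly all genes did. Their values ran from -0.51 for RHEB to 0.19 for DEPTOR. RHEB and MLST8 (-0.44), at 69.8% and 73.1% of input, were among the lower genes of this narrow spread, at percentiles 5.47 and 7.24 of all genes. Counted over members, 0 of the 7 past the filter were at least 2-fold higher (0.0% of all genes) or lower (0.759%). In knockdown-labelled cells they ran from -1.43 for MTOR to 1.53 for MLST8. MLST8 was at least 2-fold higher on polyribosomes than in input, as were 8.62% of all genes, and MTOR at least 2-fold lower, as were 28.8%, which made 2 of 7 members beside 37.5% in either direction.

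The difference in efficiency between knockdown-labelled and control cells was highest for MLST8, at 1.97, and lowest for MTOR, at -1.58. These were the only members past the filter with a difference of at least 2-fold, against 12.0% of all genes higher, 30.1% lower and 42.1% in either direction. Above 0 were also AKT1S1 at 0.80, ULK1 at 0.62, RPTOR and TSC2 at 0.37 each and RHEB at 0.28. Under the filter, DEPTOR was at -1.52, TSC1 at -0.90 and RICTOR at -0.44. The median over all 10, under the filter or not, was 0.33. That over genes past the filter alone was -0.12, and the sets were not matched for GC content. In the authors' deposited table, which adds 5 FPKM to both fractions, the efficiency ratio of MTOR was 0.54 in knockdown and 1.07 in control cells. The authors' deposited table gives MLST8 a ratio of 2.77 in knockdown and 0.75 in control cells. With that constant the log2 difference of MTOR was -0.99, under 2-fold. With the 2 knockdown-labelled columns exchanged the sign turned for both, to 1.27 for MTOR and -1.08 for MLST8, and RICTOR (1.16), DEPTOR (1.15), TSC1 (1.24) and AKT1S1 (-1.05) also passed 2-fold.

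**Figure D3:**
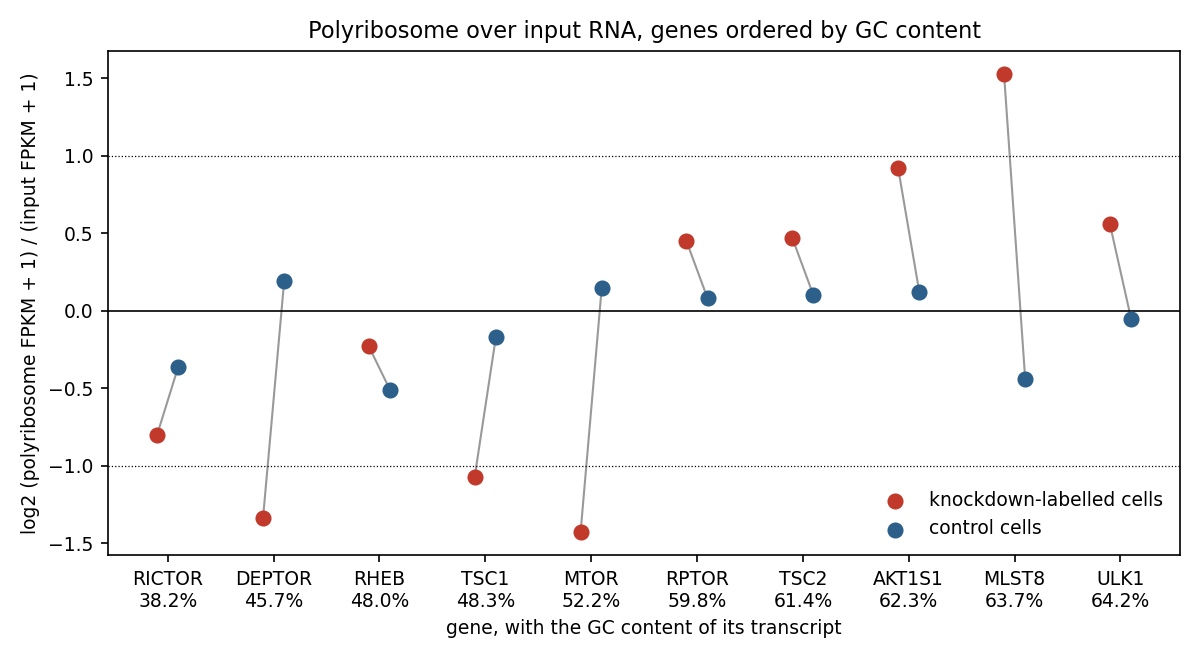
Log2 of polyribosome over input FPKM, with 1 added to each, in knockdown-labelled cells (red) and control cells (blue), for genes ordered by the GC content of their transcript. Control values stay between -0.51 and 0.19, while all 5 genes up to 52.2% GC are below 0 in knockdown-labelled cells and all 5 from 59.8% GC are above 0.

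In the knockdown-labelled cells the sign of this ratio went with the GC content of the members' transcripts. Every member with a GC content of at most 52.2% (RICTOR, DEPTOR, RHEB, TSC1 and MTOR) was lower on knockdown-labelled polyribosomes than in knockdown-labelled input. Every member with at least 59.8% (RPTOR, TSC2, AKT1S1, MLST8 and ULK1) was higher. Spearman's rho between GC content and this ratio was 0.78 over the 10 members, which share their libraries, and 0.82 over 7338 genes past the filter. In control cells it was 0.02 over the members and 0.02 over the genes. For the difference in efficiency rho was 0.77 over the members and 0.78 over the genes. For the polyribosome difference rho was 0.89 over the members and 0.61 over the genes, and for the input difference 0.10 over the members and -0.10 over the genes. With the 2 knockdown-labelled columns exchanged it was the input difference that went with GC content, with rho of 0.85 over the members and 0.62 over the genes, beside 0.16 and -0.12 for the polyribosome difference. Exchanged, rho with the knockdown-labelled ratio was -0.78 over the members and -0.82 over the genes, which follows from the reversal of its sign. These are correlations across genes, which are not independent replicates. Transcript length went less closely with the difference in efficiency, with rho of -0.56 over the members and -0.20 over the genes.

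**Figure D4:**
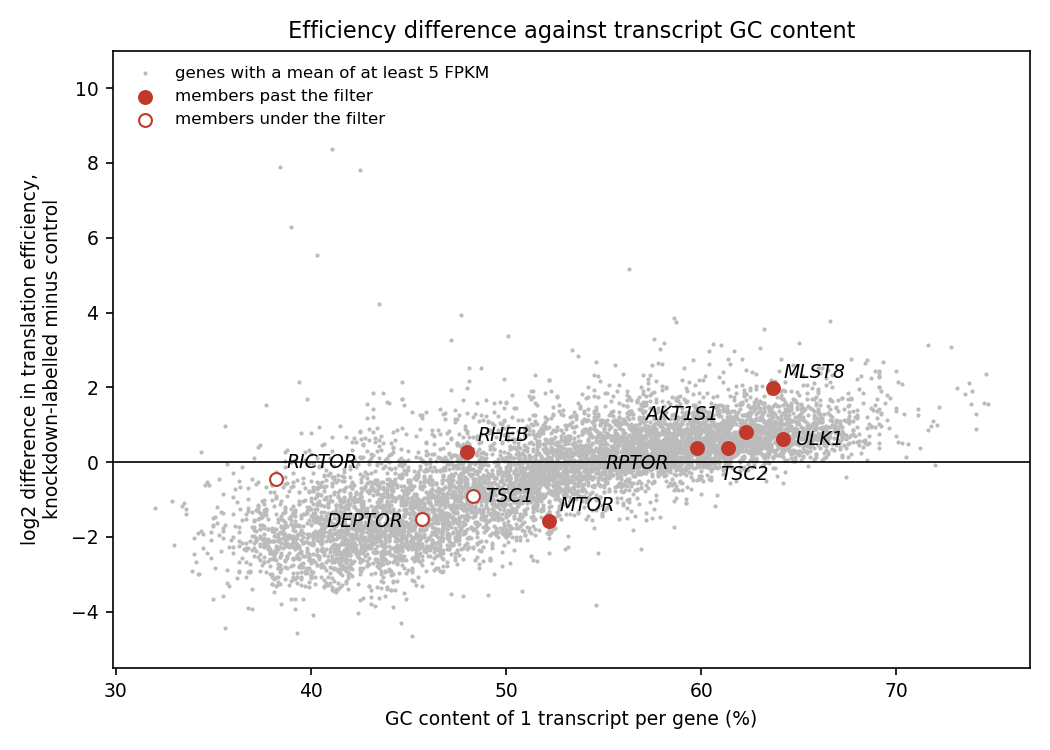
Difference in log2 translation efficiency, knockdown-labelled minus control, against the GC content of 1 transcript per gene, for 7338 genes averaging 5 FPKM or more (grey), members past that filter (filled red) and members under it (open red). The grey cloud slopes upward with GC content; MTOR, at -1.58, is below and MLST8, at 1.97, above most genes near it in the header's column order.

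Set beside genes of like GC content, MTOR was low, and MLST8 and RHEB were high, in the header's column order. Split into quintiles by GC content, MTOR falls in the middle one, in which the median difference in efficiency was -0.18 and 13.7% of genes were at least 2-fold lower. MLST8 falls in the top quintile with AKT1S1, TSC2 and ULK1, where the median was 0.73 and 31.9% of genes were at least 2-fold higher. RHEB, DEPTOR and TSC1 fall in the next to lowest quintile, where the median was -1.13, so RHEB at 0.28 was above it. RICTOR, at -0.44, falls in the lowest quintile, with a median of -1.87, but its levels are so low that the gap rests largely on the constant. With 0.1 FPKM added RICTOR was at -1.61, beside a quintile median of -2.18. With the knockdown-labelled columns exchanged, the positions of MTOR, MLST8, RHEB and RICTOR against these medians turned. MTOR was then at 1.27, above its quintile's median of -0.04, and MLST8 at -1.08, below its median of -0.78. RHEB at 0.74 was then below its median of 0.92, and RICTOR at 1.16 below its median of 1.98. After a quadratic trend on GC content and length, fitted across all genes, was removed, MTOR was at -1.62 and MLST8 at 0.72. The removal kept the mean over the fitted genes, so 0 is not the level of the trend. RHEB came to 0.75, and RICTOR to 1.32 with 1 FPKM added but 0.55 with 0.1 FPKM added. RPTOR (-0.41), TSC2 (-0.56), ULK1 (-0.57) and AKT1S1 (-0.22) came below 0, which does not by itself place them below genes of like GC content. Without the removal RPTOR, at 0.37, and AKT1S1, at 0.80, were just above their quintile medians of 0.36 and 0.73. TSC2, at 0.37, and ULK1, at 0.62, were below theirs of 0.73. With the columns exchanged the same removal left MTOR at 1.20, MLST8 at 0.15, RHEB at 0.39 and RICTOR at -1.12. MLST8 and RHEB thus kept their sign after the removal, whereas MTOR and RICTOR did not. In polyribosome RNA the same removal left MLST8 at 0.50, RPTOR at 0.35 and ULK1 at 0.26. Again with the mean kept, 0 members remained at least 2-fold higher. In input RNA RHEB was then at -1.24, MTOR at 0.89, ULK1 at 0.83 and RPTOR at 0.76, values close to those without removal.

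The other genes of the pathway were described from 9 lists with 125 members, 124 of them found in the table and 81 past the filter. In the difference in efficiency 13 of the 81 were higher by 2-fold or more and 23 lower, or 16.0% and 28.4%, beside 12.0% and 30.1% of all genes. With the knockdown-labelled columns exchanged 19 were higher and 12 lower, or 23.5% and 14.8%, beside 27.8% and 6.29% of all genes. The efficiency values of single genes that follow are in the header's column order and depend on it in the same way. In polyribosome RNA 13 were higher and 29 lower, and in input RNA 6 were higher and 13 lower. The shares were 16.0% and 35.8% in polyribosome RNA, near the 16.7% and 32.9% of all genes. In input RNA they were 7.41% and 16.0%, beside 13.2% and 14.4% of all genes.

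Upstream of mTORC1, the Rag GTPases and the Ragulator anchor it to the lysosome when amino acids are plentiful, and 6 of 10 members passed the filter. In the difference in efficiency RRAGC, a Rag GTPase, was at -2.05 and RRAGA at -0.80, whereas the Ragulator subunits LAMTOR1 and LAMTOR4 were at 1.31 and 0.90. GATOR, KICSTOR, folliculin and sensor genes relay amino acid levels to the Rags, and 13 of them passed the filter. Of these, 1 was at least 2-fold higher in efficiency (NPRL3 of GATOR1, at 1.04), or 7.69% beside 12.0% of all genes. Another 2 were lower (SEH1L of GATOR2, at -2.45, and KICS2, listed as C12orf66, at -1.40), or 15.4% beside 30.1% of all genes. FLCN, which encodes folliculin, was at 39.62 FPKM in knockdown-labelled polyribosome RNA and 25.81 FPKM in knockdown-labelled input, against 7.24 FPKM in control polyribosome RNA and 7.67 FPKM in control input. The arginine sensor gene CASTOR1, listed as GATSL3, had log2 differences of 2.13 in polyribosome RNA and 1.39 in input.

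Growth factor and energy signals reach the TSC complex through PI3K, AKT, AMPK and LKB1. Of 15 such genes past the filter, 4 were higher and 4 lower by 2-fold or more in efficiency. That made 26.7% in each direction, beside 12.0% of all genes higher and 30.1% lower. STK11, which encodes LKB1, was at 1.78 and PIK3R2, a regulatory subunit of PI3K, at 1.68. PRKAA1, a catalytic subunit of AMPK, was at -2.32 and CAB39, a partner of LKB1, at -2.17. DDIT4, a stress-induced inhibitor of mTORC1 that acts through the TSC complex, was at 94.75 FPKM in knockdown-labelled input, against 605.78 FPKM in control input. It was at 100.68 FPKM in knockdown-labelled polyribosome RNA, against 686.87 FPKM in control polyribosome RNA. IRS1, the insulin receptor substrate, had log2 differences of -2.13 in input and -2.84 in polyribosome RNA. TBC1D7, a further subunit of the TSC complex, was higher by 1.27 in input and 1.24 in polyribosome RNA, and its efficiency difference was -0.04.

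Among the remaining mTORC2 and assembly genes, PRR5, an mTORC2 subunit, was at 2.06 in efficiency and TTI1, which helps assemble mTOR complexes, at -1.01. Of 5 past the filter these were the 1 at least 2-fold higher and the 1 lower, or 20.0% each, beside 12.0% and 30.1% of all genes. The genes of mTOR substrates and translation outputs had 2 of 14 at least 2-fold higher and 6 lower in efficiency. That was 14.3% and 42.9%, beside 12.0% and 30.1% of all genes. RPS6KB2, an S6 kinase gene, was at 1.66 and MAF1, a repressor of RNA polymerase III, at 1.46. PDCD4, an inhibitor of the helicase eIF4A, was at -2.78 and EIF4E, the cap-binding protein, at -2.69. EIF4EBP1, which encodes the mTORC1-controlled inhibitor of eIF4E, was at -1.10 in input, while its paralog EIF4EBP2 was higher by 1.35 in input and 1.84 in polyribosome RNA. SGK1, a kinase that mTORC2 phosphorylates, was at 42.39 FPKM in knockdown-labelled input, against 8.72 FPKM in control input. On polyribosomes SGK1 had 13.55 FPKM in knockdown-labelled and 7.98 FPKM in control cells.

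The other genes of the ULK complex and the paralogs of ULK1 past the filter had efficiency differences of 1.08 for ULK3, 1.02 for ATG13 and 0.74 for ATG101. In input, where ULK1 was at 0.77, these were instead at -1.52 for ULK3, -0.97 for ATG13 and -0.69 for ATG101. Of 18 genes of the class III PI3K, ATG9 and conjugation steps of autophagy, 2 were at least 2-fold higher and 5 lower in efficiency. These shares, 11.1% and 27.8%, were near the 12.0% and 30.1% of all genes. ATG4D, a protease that processes LC3 family proteins, was at 2.37 and WIPI2, which recruits the conjugation machinery, at 1.25, while ATG3, a conjugating enzyme, was at -2.53 and NRBF2, a subunit of the class III PI3K, at -2.12. WIPI1, a phosphoinositide-binding relative of WIPI2, was at -3.09 in input and -2.88 in polyribosome RNA. Autophagy receptors, which tether cargo to the growing membrane, had 0 of 6 higher and 4 of 6 at least 2-fold lower in efficiency, where 12.0% of all genes were higher and 30.1% lower, with a median of -1.77 beside -0.12 over all genes. With the columns exchanged 4 of 6 were higher and 0 lower, with a median of 1.91. CALCOCO2 was at -2.27 and NBR1 at -2.13, with GC contents of 45.7% and 44.9%, while TOLLIP was at 0.53 and SQSTM1 at -0.06, with 58.1% and 58.0%. The part of GC content in these differences was not tested.

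**Figure D5:**
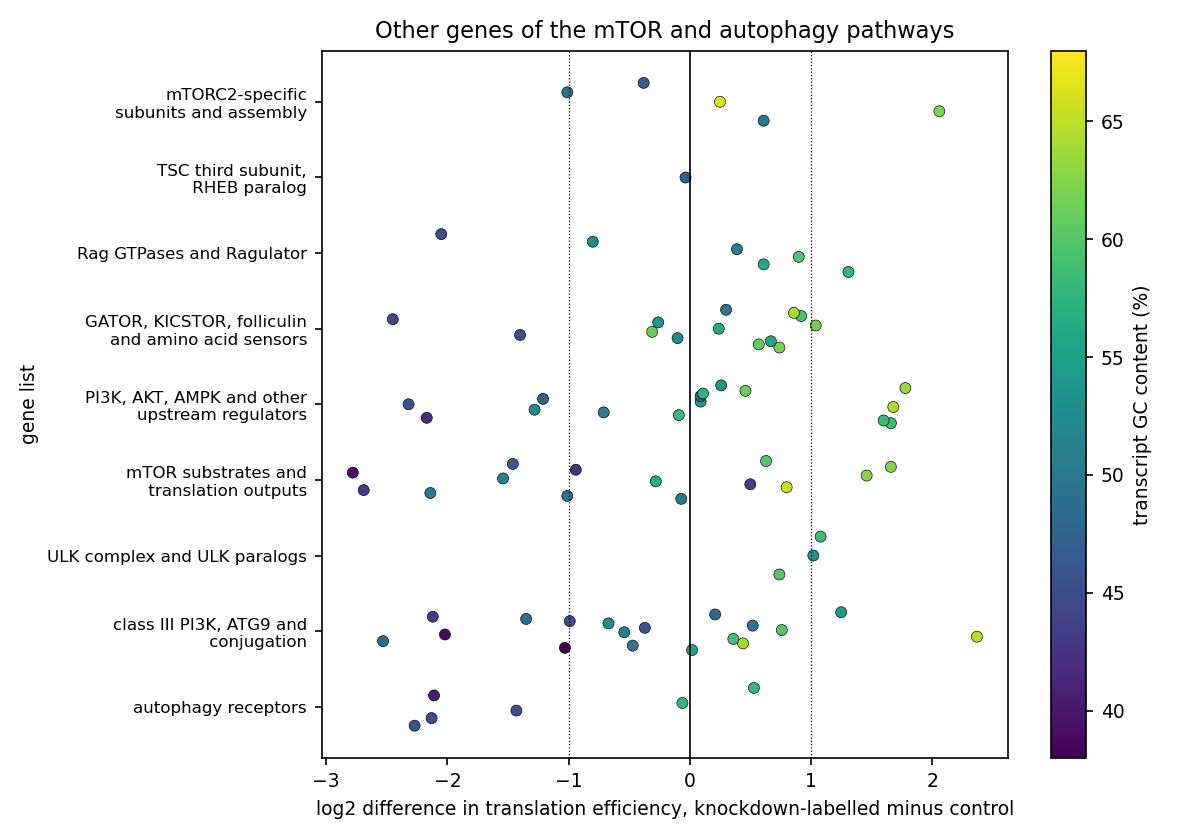
Difference in log2 translation efficiency, knockdown-labelled minus control, of 81 other genes of the mTOR and autophagy pathways, 1 point per gene, by list and coloured by transcript GC content; dotted lines mark 2-fold. Points toward the right are mostly of high GC content, such as ATG4D at 2.37, and points toward the left mostly of low GC content, such as PDCD4 at -2.78.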

How the data were processed

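The authors deposited 1 table of FPKM per gene symbol for 4 libraries and a translation efficiency ratio per gene. That deposited ratio equals polyribosome over input after adding 5 FPKM to each. The submitters' processing notes name TopHat and the builds hg19 and GRCh37; counting tool, annotation and filters: not given in the sources used here. Per the labels' protocols, the library kit keeps strand. Depth is unknown, since values are rounded to 0.01 FPKM, so no floor or interval was computed.

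Differences of log2(FPKM + 1) were computed with pandas 2.3.3 and NumPy 2.4.6, and genes at least 2-fold apart were counted over those with a mean of at least 5 FPKM, with no test. GC content and length came from 1 transcript per gene in GENCODE 29 (the longest coding part), matched for 7338 of 7379 genes (99.4%). Scripts were tested on simulated data. Alternatives were other constants, filters, centring, removal of GC content and length, and exchange of the knockdown-labelled columns. The removal took out the fitted trend and kept the mean over the fitted genes. The quintile and pathway values under other settings, and the removal combined with another constant or the exchange, were added after seeing the data.

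The members and lists were chosen with earlier results of these data known. The text names all members, NSUN6 and METTL1, and of each list and comparison up to 2 highest and 2 lowest genes. CD68, PTPRC and the epithelial markers were named after their values were seen.
Items withheld for evaluation are not reported here.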

Additional observations from a re-analysis of the deposited data

Results flagged for a closer look

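For 4 members the polyribosome-to-input ratio lay on opposite sides of 0 in the 2 kinds of cells in the header's column order, with 1 pair of libraries each, and the difference was not tested. MTOR was at -1.43 in knockdown-labelled cells and 0.15 in control cells, and DEPTOR at -1.34 in knockdown-labelled cells and 0.19 in control cells. MLST8 was at 1.53 in knockdown-labelled cells and -0.44 in control cells, and ULK1 at 0.56 in knockdown-labelled cells and -0.05 in control cells. The exchange of the knockdown-labelled columns reverses the sign of every knockdown-labelled ratio. With it, these 4 necessarily lay on the same side of 0 as in control cells. The other 6 members then lay on opposite sides, at -0.45 in knockdown-labelled and 0.08 in control cells for RPTOR, -0.92 and 0.12 for AKT1S1, and -0.47 and 0.10 for TSC2. RICTOR was then at 0.80 in knockdown-labelled and -0.36 in control cells, TSC1 at 1.07 and -0.17, and RHEB at 0.23 and -0.51.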

How the results depend on the processing

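With 1 library per group and unknown depth, the size of counting error is unknown, and values near 1 FPKM, such as those of RICTOR, depend most on the added constant. Of 74 recomputed counts over members, 58 stayed within 1.5 times. Among the 58 are the counts in control cells, which were 0 under every setting. Exchanging the columns also cannot change which members lie above or below control in both fractions. With 5 FPKM added, 0 members past the filter were at least 2-fold lower in the knockdown-labelled polyribosome-to-input ratio and 0 in the efficiency difference, where MTOR was at -0.89 and -0.99. With a mean of at least 1 FPKM or no filter, all 10 members entered, and 3 were lower in that ratio, 2 lower in efficiency, 1 (DEPTOR) higher in input RNA and 2 below control in both fractions. With GC content and length removed, 0 members past the filter were at least 2-fold higher in that ratio, in polyribosome RNA or in efficiency. The removal kept the mean over the fitted genes, so these counts are taken from 0 and not from the fitted trend. RICTOR, under the filter, was then at 1.22 in that ratio and 1.32 in efficiency. Exchange of the knockdown-labelled columns gave, over members past the filter, 3 higher in input, 0 higher in polyribosome RNA and 2 lower in efficiency.

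By construction, the exchange reverses the sign of the knockdown-labelled polyribosome-to-input ratio of every gene. It also turned the sign of some other 2-fold differences. The polyribosome-to-input ratio became 1.43 for MTOR, -1.53 for MLST8, 1.34 for DEPTOR, 1.07 for TSC1 and 1.81 for NSUN6. The efficiency difference became 1.27 for MTOR, -1.08 for MLST8, 1.15 for DEPTOR and 1.63 for NSUN6, and the input difference of DEPTOR became -0.27. Over all genes, 885 were higher and 2221 lower in efficiency, against 404 and 1314 with GC content and length removed and 2049 and 464 with the columns exchanged. In polyribosome RNA 1230 were higher and 2426 lower, against 764 and 1923 with the removal and 936 and 1031 with the exchange. The knockdown-labelled polyribosome-to-input ratio had 636 genes higher and 2128 lower, against 245 and 1076 with the removal, 2128 and 636 with the exchange, 3581 lower with a mean of at least 1 FPKM and 3695 lower with no filter. The last 2 settings gave 3756 and 3818 lower in polyribosome RNA. No filter gave 1615 higher and 1679 lower in input and 3344 lower in efficiency, against 973 and 1065 in input, and the exchange gave 2343 lower in input. In control cells 56 genes were lower on polyribosomes, against 30 with 5 FPKM added, 128 with a mean of at least 1 FPKM and 133 with no filter. No paired analysis was possible because the groups have no independent replicates whose numbers could pair them.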
